A study of Homo sapiens with 8 samples.

Results

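The genes described here are 10 markers of epithelial and mesenchymal cell state, taken by symbol from the 63241 genes of the deposited expression files. They are the keratins KRT7, KRT8, KRT18 and KRT19, vimentin (VIM), the cadherins CDH1 and CDH2, the adhesion molecule EPCAM, and the transcription factors ZEB1 and SNAI2. Each symbol matched 1 Ensembl identifier. Both HepG2 and Huh7 are long-established lines of human liver cancer cells. Parental cells (WT, labelled as control) and sorafenib-resistant cells (SR, labelled as treated with sorafenib) were sequenced as 2 libraries each, which gave 4 groups and 8 libraries. SR cells had been grown in stepwise higher doses of the kinase inhibitor sorafenib, and whether an SR line is 1 clone is not given in the sources used here. All libraries carry the same batch label. Nothing in the labels says that replicates came from separate cultures, so the p-values measure the spread between these libraries, which may be technical.

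Keratins form the intermediate filaments of epithelial cells as obligate pairs of a type II chain (KRT7 or KRT8) and a type I chain (KRT18 or KRT19). Hepatocytes carry mainly the KRT8 and KRT18 pair, and bile duct cells and liver progenitors add KRT7 and KRT19. Vimentin is the intermediate filament of mesenchymal cells. E-cadherin (CDH1) and N-cadherin (CDH2) hold neighbouring cells together at adherens junctions, and hepatocytes make both. EPCAM is a surface glycoprotein of epithelial and liver progenitor cells, and ZEB1 and SNAI2 are repressors of epithelial genes that act through E-box motifs.

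Values are FPKM, fragments scaled to transcript length and library total, so levels can be set side by side between genes of a library. Between libraries the comparison is approximate, because summed FPKM was not equal. It was 384792 in HepG2 WT replicate 1 and 429111 in HepG2 SR replicate 2. Each library held from 12829 to 13386 genes at 1 FPKM or more. Depth is unknown, because the files hold no read totals and the steps between low FPKM values gave no stable estimate. Genes above 0 numbered 38276 in HepG2 WT replicate 2 and from 27188 to 29071 elsewhere.

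The libraries did not sort by the labelled cell line. Across the genes tested, Pearson's r of log2(FPKM + 1) lay between 0.914 and 0.977 among 5 libraries, namely the HepG2 ones other than SR replicate 2 and the Huh7 ones of replicate 2. The Huh7 libraries of replicate 1 resembled each other (0.965) more than those 5 (at most 0.783). HepG2 SR replicate 2 resembled no other library closely, with an r of at most 0.846. These values are across genes, which are not independent replicates. Groups below are those of the labels. Some results are also given for the 5 similar libraries alone, a fit in which 3 of the 4 groups have 1 library, so that only the HepG2 WT pair shows the spread between replicates. The hepatocyte gene ALB was read at 2139 to 4713 FPKM in HepG2 libraries and at 12.0, 604, 42.3 and 2891 FPKM in Huh7 WT replicates 1 and 2 and Huh7 SR replicates 1 and 2. All 14 hepatocyte markers on the list were tested, and their summed level ran from 1800.4 FPKM in Huh7 WT replicate 1 to 11353 FPKM in Huh7 SR replicate 2.

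To ask whether resistant cells differ in these genes, limma compared log2(FPKM + 1) of SR and WT within HepG2 and within Huh7, and also Huh7 with HepG2 over WT and SR together. The added 1 shrinks fold changes of genes at low FPKM. Tested were 15173 genes with at least 1 FPKM in at least 2 libraries. Of the 10 genes 9 were tested, and SNAI2 was below that level in every library. Where groups are said below to overlap or not, the share of all genes that do so is not given here. Groups of 2 libraries can separate by order alone, so such statements are descriptions. A gene was called when its unadjusted p was under 0.05 and its log2 fold change was at least 0.5 or under -0.5, the thresholds of the study. In HepG2 SR versus WT limma called 0 of 9 genes at this unadjusted level, where 2.14% of all genes tested (325) were. In Huh7 SR versus WT 0 of 9 were called, against 1.87% (283). For the difference between those SR effects 0 of 9 were called, against 0.606% (92), and in Huh7 versus HepG2 2 of 9 were called, against 4.9% (744). At a Benjamini-Hochberg adjusted p under 0.05, limma called 0% of all genes in HepG2 SR versus WT, 0% in Huh7 SR versus WT, 0% for the difference and 0% in Huh7 versus HepG2. The smallest adjusted p in these comparisons was 0.956, 1, 1 and 0.813.

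After rescaling every library to the same total (TPM), the median log2 fold change of all genes moved from -0.03 to -0.12 in HepG2 and from -0.05 to -0.14 in Huh7. The split of calls into higher and lower moved with it, from 133 and 192 to 86 and 239 in HepG2 and from 143 and 140 to 108 and 204 in Huh7.

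KRT8 and KRT18, the keratin pair of hepatocytes, had the highest medians of the 10 genes over the 8 libraries, at 603 and 485 FPKM. KRT8 was at 1417 and 862 FPKM in HepG2 WT, 914 and 455 FPKM in HepG2 SR, 417 and 323 FPKM in Huh7 WT, and 625 and 581 FPKM in Huh7 SR. Both Huh7 SR libraries lay above both Huh7 WT libraries, and in HepG2 the groups overlapped. The log2 fold change of SR against WT was -0.78 (standard error 0.45, limma adjusted p = 0.956) in HepG2 and 0.71 (standard error 0.45, limma adjusted p = 1) in Huh7. The difference between these effects was 1.49 (0.64), with an unadjusted p of 0.0544 and an adjusted p of 1 from limma, so the effects of opposite sign were not shown to differ. Without HepG2 SR replicate 1 the HepG2 value was -1.28 and was called, and without HepG2 SR replicate 2 it was -0.27.

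Between the cell lines KRT8 was called, at 486 ± 141 FPKM (SD, n = 4) in Huh7 and 912 ± 394 FPKM (SD, n = 4) in HepG2. The log2 fold change was -0.84 (standard error 0.32), the unadjusted p 0.0348 and the limma adjusted p 0.813, and the 2 sets of libraries overlapped. The call was lost without HepG2 WT replicate 1 (-0.66), HepG2 SR replicate 1 (-0.59), Huh7 WT replicate 2 (-0.75), Huh7 SR replicate 1 (-0.87) or Huh7 SR replicate 2 (-0.82). It was also lost with quantile normalization (-0.70) and with genes kept from 0.1 FPKM (-0.84), and its direction was the same in each of these fits.

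KRT18 was at 889 and 477 FPKM in HepG2 WT, 494 and 352 FPKM in HepG2 SR, 526 and 207 FPKM in Huh7 WT, and 647 and 395 FPKM in Huh7 SR. Its groups overlapped in every comparison, with log2 fold changes of -0.64 (standard error 0.57) in HepG2 and 0.62 (0.57) in Huh7. Without Huh7 WT replicate 2 the Huh7 value was -0.06. Between the lines KRT18 was -0.35 (0.40), and in the 5 similar libraries alone -0.99. It was called there, in a fit with 1 library in each group but HepG2 WT. The ratio of KRT8 to KRT18 FPKM was between 1.29 and 1.85 in 6 libraries, and below 1 in Huh7 WT replicate 1 (0.793) and Huh7 SR replicate 1 (0.966). KRT8 (ENSG00000170421) and KRT18 (ENSG00000111057) overlap on opposite strands of chromosome 12 in GRCh38 (GENCODE 29), KRT8 from 52897187 to 52949954 and KRT18 from 52948871 to 52952901. Nothing states that reads were counted by strand, so those in the overlap cannot be assigned to either gene. Processed pseudogenes share much of their sequence, and the 124 KRT7, KRT8, KRT18 and KRT19 pseudogenes summed to between 5.94 and 12.9 FPKM per library, KRT8P3 (mean 2.62 FPKM) and KRT8P12 (1.53 FPKM) having the most. Of these 2 were tested and 0 were called in the 3 comparisons, with medians of -0.38 in HepG2, 0.03 in Huh7 and -0.22 between the lines.

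KRT19, the type I keratin of bile duct cells and progenitors, varied much more than KRT8 and KRT18. It was at 759.6 and 279 FPKM in HepG2 WT, 255 and 0.179 FPKM in HepG2 SR, 1.78 and 155 FPKM in Huh7 WT, and 2.37 and 178 FPKM in Huh7 SR. The libraries thus fell into 5 with at least 155 FPKM and 3 with at most 2.37 FPKM, and the low ones were the 3 that stand apart. KRT19 made up between 31.0% and 46.1% of the summed KRT18 and KRT19 FPKM in the 5 high libraries, and 0.0509% in HepG2 SR replicate 2 and 0.337% and 0.365% in the Huh7 libraries of replicate 1. In HepG2 SR versus WT the log2 fold change was -4.73 (standard error 3.08, limma adjusted p = 0.956), and the SR libraries lay below the WT libraries without overlap. It was -0.85 without HepG2 SR replicate 2 and -8.61 without HepG2 SR replicate 1, where it was called. That fit assumes that the lone SR library varies like the other groups. With a replicate block within each cell line KRT19 was called at -4.73, the value of the main fit. With the planned replicate block, also at -4.73, it was not called. In Huh7 the SR effect was 0.24 (3.08), and it was -2.67 without Huh7 WT replicate 1 and -2.63 when Huh7 SR replicate 2 was left out. Libraries of the same replicate number, which may share nothing but the number, differed by 0.28 and 0.20 in Huh7 and by -1.57 and -7.89 in HepG2, as SR minus WT.

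**Figure D1:**
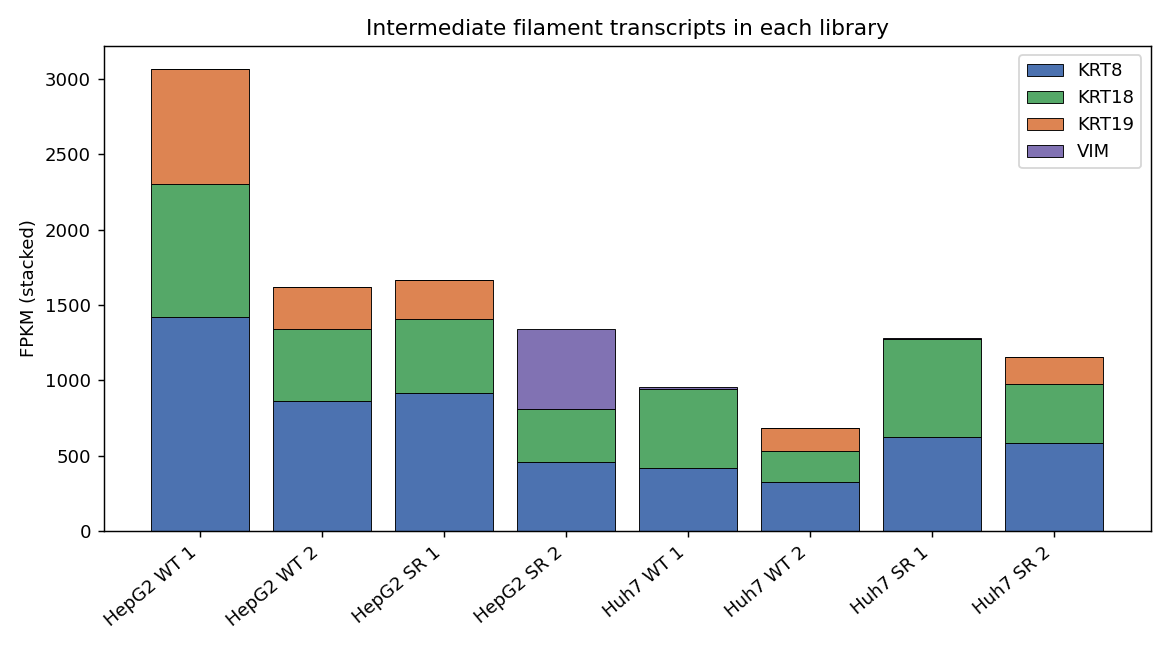
Stacked FPKM of KRT8, KRT18, KRT19 and VIM in each library. KRT19 made up from 31.0% to 46.1% of the type I keratin in 5 libraries and at most 0.365% in the other 3, and VIM was visible in HepG2 SR replicate 2, at 536 FPKM, and barely in the others.

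KRT7, the type II keratin of bile duct cells, was low throughout, at 0.887 and 1.30 FPKM in HepG2 WT, 0.209 and 0 FPKM in HepG2 SR, 0.551 and 4.75 FPKM in Huh7 WT, and 0.472 and 0.203 FPKM in Huh7 SR. Both SR libraries lay below both WT libraries in each cell line, an order whose share over all genes is not given here. KRT7 passed the filter through 2 WT libraries, those of replicate 2, so the filter itself asked for high values in those groups. The log2 fold change was -0.92 (standard error 0.62, limma adjusted p = 0.956) in HepG2 and -1.17 (standard error 0.62, limma adjusted p = 1) in Huh7. Without Huh7 WT replicate 1 both were called, at -0.92 and -2.11, and KRT7 was called higher in Huh7 than in HepG2, at 0.87. In the 5 similar libraries, with 1 library in each Huh7 group, the Huh7 SR effect was -2.26. Without HepG2 WT replicate 2 or Huh7 WT replicate 2 KRT7 did not pass the filter.

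The summed FPKM of the 4 keratins was highest in HepG2 WT replicate 1, at 3066, and between 689 and 1663 in the other libraries. As a share of all FPKM this was 0.797% in that library and from 0.171% to 0.409% in the others. Type II over type I FPKM lay between 0.792 and 1.29 in every library, those with low KRT19 included. Transcripts of both types were thus at similar levels per length, and protein was not measured in these libraries.

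Of 21 other keratins 7 were tested, and 14 were under 1 FPKM in every library. In HepG2 SR versus WT 1 was called, lower, with a median log2 fold change of -1.61 against -0.03 over all genes, and without HepG2 SR replicate 2 the median was -0.06 and 0 were called. In the 5 similar libraries, where HepG2 SR has 1, 5 were tested and the median was -0.89. The gene called in all 8 libraries was KRT15, a keratin of basal epithelial cells, at 8.88 and 3.31 FPKM in HepG2 WT and 1.21 and 0.0496 FPKM in HepG2 SR (-2.10, standard error 0.83), and its call was lost without HepG2 SR replicate 2 (-1.56) or HepG2 WT replicate 1 (-1.50). KRT23 and KRT10 had the highest means, 22.9 and 9.38 FPKM. KRT23 was at 37.1, 39.9 and 39.0 FPKM in the first 3 HepG2 libraries and at 0.184 FPKM in HepG2 SR replicate 2. Of these 7 genes 0 were called in Huh7 SR versus WT and in Huh7 versus HepG2, with medians of -0.17 and 0.00.

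VIM, the mesenchymal filament protein, was at 0.309 and 0.777 FPKM in HepG2 WT, 0.211 and 536 FPKM in HepG2 SR, 7.02 and 0.802 FPKM in Huh7 WT, and 3.30 and 0.736 FPKM in Huh7 SR. One library, HepG2 SR replicate 2, carried nearly all of it. There VIM ranked 98 among all genes and made up 39.9% of the summed FPKM of VIM and the 4 keratins, and in the other 7 libraries it made up at most 0.737%. KRT8 and KRT18 were still at 455 and 352 FPKM in that library. Bulk values do not show whether the transcripts come from the same cells, and more cells of a type cannot be told apart from more RNA per cell. The log2 fold change of HepG2 SR against WT was 4.06 (standard error 2.50, limma adjusted p = 0.956). It was -0.33 without HepG2 SR replicate 2. Without HepG2 SR replicate 1 it was 8.46 and was called, a value that rests on the 1 remaining SR library. In Huh7 the SR effect was -0.48 (2.50), and it was 0.60 without Huh7 WT replicate 1 and 0.18 when Huh7 SR replicate 2 was left out. Between the lines it was -0.95 (1.77), with 1.25 without HepG2 SR replicate 2 and -3.15, where it was called, without HepG2 SR replicate 1. VIM (ENSG00000026025) lies on chromosome 10 from 17228259 to 17237593, and its antisense gene VIM-AS1 was at 1.12 FPKM in HepG2 SR replicate 2 and at most 0.183 FPKM elsewhere.

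Markers of other cell types were read in the same library. Of 10 fibroblast markers 3 were tested and 0 were called, with medians of -0.67 in HepG2 SR versus WT, 0.31 in Huh7 SR versus WT and -0.58 between the lines. The 10 summed to 59.2, 63.0, 42.1 and 30.8 FPKM in HepG2 WT replicates 1 and 2 and HepG2 SR replicates 1 and 2, and 2.70, 25.6, 1.66 and 44.3 FPKM in Huh7 in the same order. The most abundant was ACTA2, at 0.0349 FPKM in HepG2 SR replicate 2. In that library DCN, THY1 and POSTN were listed at 0, and PDGFRA and COL1A2 were at 21.7 and 8.28 FPKM, against at most 0.0720 and 0.519 FPKM elsewhere. The hepatocyte genes ALB and AFP were at 4713 and 1100.1 FPKM there, AFP at most at 35.8 FPKM in the other libraries. Hepatocyte markers went both ways in that library. AHSG was at 175 FPKM against at least 1861 FPKM in the other HepG2 libraries, and APOA1 at 439 FPKM against at least 1107 FPKM. Without ALB, the hepatocyte markers summed to 4439 FPKM there and to 5597, 7457 and 8478 FPKM in the other HepG2 libraries. The 8 endothelial markers, of which 1 (PECAM1) was tested and not called, summed to at most 4.52 FPKM in any library. Of the 8 immune markers LYZ made up most, from 44.2 to 1058 FPKM, and PTPRC, the pan-leukocyte marker, was at most 0.0258 FPKM. The part of other cell types in the VIM value was not tested.

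The sequence before the VIM start is shown because, on the log2 scale, the VIM values of the 2 HepG2 SR libraries lay furthest apart of any pair within a group for the 10 genes. In the other 3 groups KRT19 differed more than VIM. The VIM sequence is the RefSeq sequence of GRCh38.p14, plus strand, chr10:17227991-17228240, the 250 bases upstream of the start. Promoters were searched on both strands for the E-box CAGGTG, the GC box GGGCGG and the TATA box TATAAA, which 17.5%, 42.6% and 10.7% of 35116 RefSeq promoters hold in the same window. Capitals mark the matches, and VIM has 1 GC box and neither of the other motifs. A match is a description and not a site.

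VIM: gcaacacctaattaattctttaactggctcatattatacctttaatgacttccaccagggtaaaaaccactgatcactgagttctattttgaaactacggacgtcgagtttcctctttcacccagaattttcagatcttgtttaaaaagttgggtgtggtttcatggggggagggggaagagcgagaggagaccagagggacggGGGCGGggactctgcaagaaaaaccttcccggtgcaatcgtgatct

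Among 15 other intermediate filament genes, 8 were tested and 0 were called in SR versus WT of either cell line, with medians of -0.21 in HepG2 and 0.01 in Huh7. LMNA and LMNB2, which encode nuclear lamins, had the highest means, 113 and 37.1 FPKM. LMNA was at 21.4 FPKM in HepG2 SR replicate 2 and between 55.6 and 245 FPKM elsewhere. In Huh7 versus HepG2 1 of 8 was called, lower, with a median of -0.27 against 0.03. It was NES, the filament nestin of progenitor cells, at 0.729, 5.41, 0.525 and 15.0 FPKM in Huh7 and from 16.5 to 26.2 FPKM in HepG2. Its log2 fold change was -2.39 (standard error 0.78). The call was lost without HepG2 WT replicate 1 (-2.32) or Huh7 WT replicate 1 (-1.92). Without Huh7 SR replicate 1 the value was -1.54, and in the 5 similar libraries -1.04, both called.

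**Figure D2:**
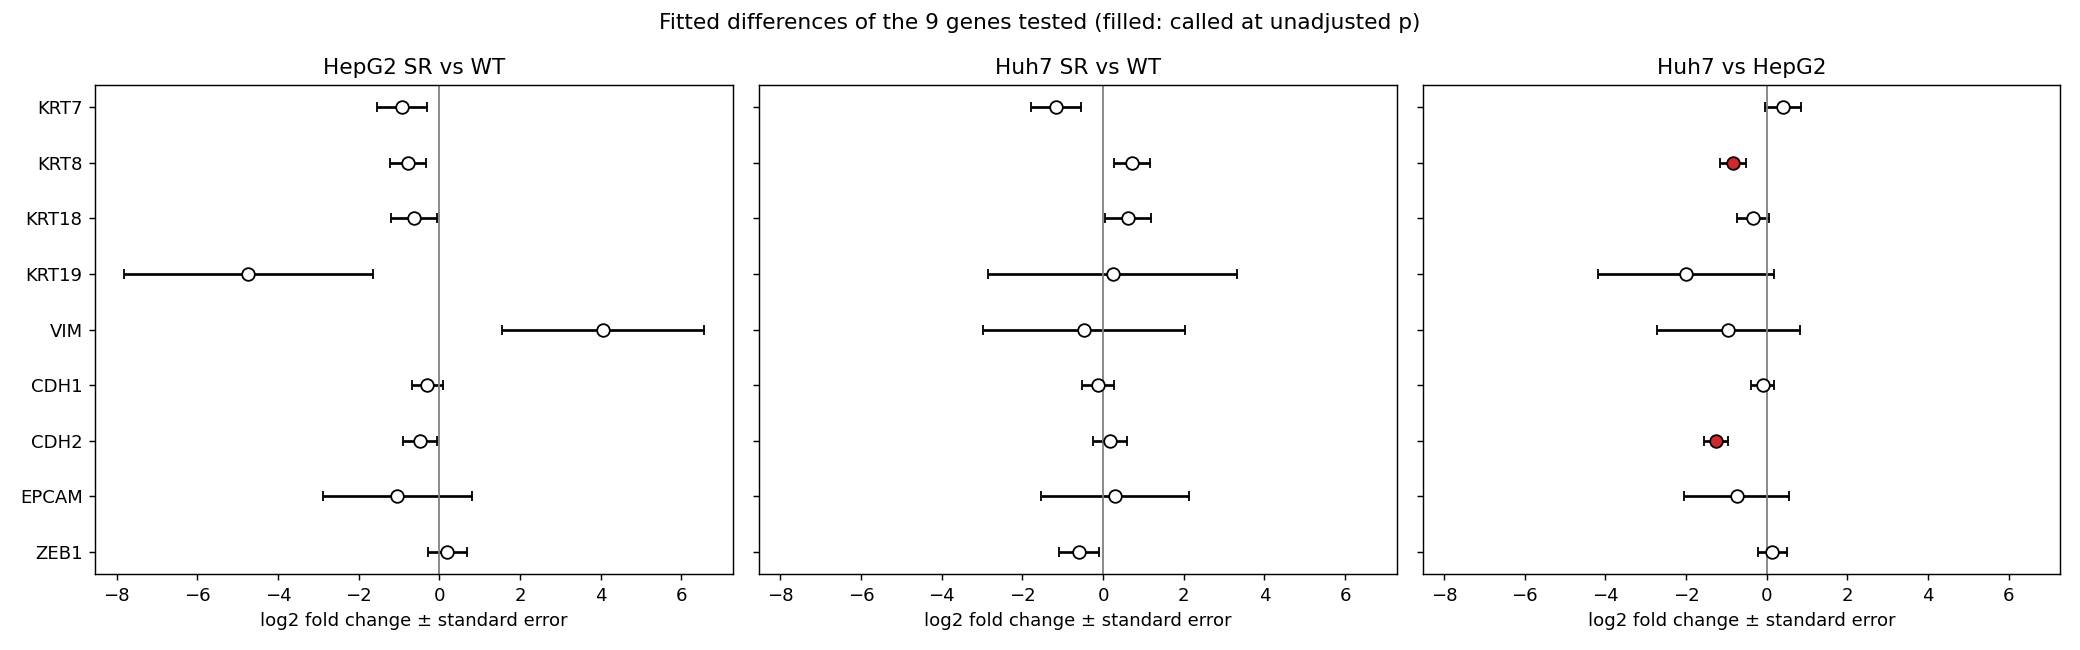
Log2 fold change with its standard error for the 9 genes tested in HepG2 SR versus WT, Huh7 SR versus WT and Huh7 versus HepG2, all from 1 limma model of 8 libraries. Filled points were called at the unadjusted threshold, which CDH2 and KRT8 passed between the cell lines and 0 genes passed between SR and WT.

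CDH2 was the member whose level followed the labelled cell line. N-cadherin transcript was at 31.7 and 31.5 FPKM in HepG2 WT, 19.5 and 25.5 FPKM in HepG2 SR, 12.0 and 7.97 FPKM in Huh7 WT, and 7.89 and 15.8 FPKM in Huh7 SR. All 4 Huh7 libraries lay below all 4 HepG2 libraries, at 10.9 ± 3.79 FPKM (SD, n = 4) against 27.0 ± 5.84 FPKM (SD, n = 4). The log2 fold change was -1.26 (standard error 0.30), with an unadjusted p of 0.00404 and a limma adjusted p of 0.813, so the difference failed the correction over all genes. It was called with each library left out in turn, from -1.49 to -1.03, and in the 5 similar libraries alone it was -1.07. CDH2 (ENSG00000170558) lies on chromosome 18 from 27950966 to 28177446. Within HepG2 both SR libraries lay below both WT libraries, with a log2 fold change of -0.49 (0.42), and in Huh7 the value was 0.18 (0.42). Without Huh7 SR replicate 2 the latter was -0.28, and without Huh7 WT replicate 2 it was -0.09.

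CDH1, by contrast, was nearly level. E-cadherin transcript was at 13.0 and 13.9 FPKM in HepG2 WT, 8.19 and 14.0 FPKM in HepG2 SR, 11.6 and 12.0 FPKM in Huh7 WT, and 13.4 and 8.41 FPKM in Huh7 SR. The lowest values, HepG2 SR replicate 1 and Huh7 SR replicate 2, were both SR libraries, but in each line the other SR library was above both WT libraries. Log2 fold changes were -0.30 (standard error 0.39) in HepG2 SR versus WT, -0.13 (0.39) in Huh7 SR versus WT and -0.10 (0.28) in Huh7 versus HepG2. The HepG2 value was 0.05 without HepG2 SR replicate 1, and the Huh7 value 0.17 without Huh7 SR replicate 2. The value between the lines was 0.08 without HepG2 SR replicate 2 and 0.06 without Huh7 SR replicate 2. CDH1 over CDH2 FPKM lay between 0.410 and 0.549 in HepG2, and in Huh7 it was 0.960, 1.50, 1.70 and 0.532. CDH1 was at 14.0 FPKM in HepG2 SR replicate 2, the library with high VIM.

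Of 14 other cadherins 5 were tested and 0 were called in the 3 comparisons, with medians of -0.46 in HepG2, -0.20 in Huh7 and -0.25 between the lines. CDHR2, a cadherin of the microvillus tip, had the highest mean at 26.3 FPKM. It was at 105 FPKM in Huh7 WT replicate 2, at 1.82 and 2.06 FPKM in the Huh7 libraries of replicate 1 and at 0.161 FPKM in HepG2 SR replicate 2. CDH17 followed with a mean of 1.87 FPKM and was highest in HepG2 SR replicate 2, at 10.5 FPKM.

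The adherens junction list had 11 of 14 genes tested, 0 called in SR versus WT of either line, and medians of -0.21 in HepG2 and 0.17 in Huh7. CTNNB1 and CTNNA1, which encode the catenins that tie cadherins to actin, had the highest means at 122 and 102 FPKM. CTNNB1 was called between the lines, from 81.0 to 139 FPKM in Huh7 and from 126 to 183 FPKM in HepG2, with a log2 fold change of -0.64 (standard error 0.26). It was the 1 gene called of 11, with a list median of -0.14. The call was lost without any 1 of 6 libraries, for example HepG2 SR replicate 2 (-0.51).

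Among the keratin linkers and desmosome genes 13 of 17 were tested. In HepG2 SR versus WT the fold changes of all 13 were below 0, with a median of -1.09 against -0.03 over all genes and 0 called. The share of all genes below 0 is not given here for any fit, so counts below 0 are descriptions. Without HepG2 SR replicate 2 all 13 were still below 0, with a median of -0.35 and 0 called. Without HepG2 SR replicate 1 the median was -1.84 and 8 were called, in a fit that called 1744 of all genes against 325 with all 8 libraries. With a replicate block within each cell line 7 of the 13 were called lower, and 1392 of all genes were called. DSP, the plakin that anchors keratin to desmosomes, was at 183 and 89.4 FPKM in HepG2 WT, against 87.3 and 16.4 FPKM in HepG2 SR. JUP, the plakoglobin of both junction types, was at 112 and 42.3 FPKM and at 51.9 and 21.0 FPKM in the same groups. In Huh7 6 of 13 fold changes were above 0, with a median of -0.01 and 0 called. In Huh7 versus HepG2 the median was -0.08, with -0.75 without HepG2 SR replicate 2 and 0.23 without HepG2 SR replicate 1. In the fit of all 8 libraries 1 was called, lower, namely the desmosome gene PKP2 (-0.79, standard error 0.27), at 7.57 to 12.4 FPKM in Huh7 and 9.72 to 23.4 FPKM in HepG2. That call was lost without HepG2 WT replicate 1 (-0.72), HepG2 SR replicate 1 (-0.60), Huh7 WT replicate 1 (-0.75) or Huh7 SR replicate 1 (-0.68).

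Of 28 tight junction genes 23 were tested. In HepG2 SR versus WT 1 was called, higher, and the list's median was -0.32. It was TJP3, a scaffold protein of the junction, at 0.895 and 1.96 FPKM in WT and 3.67 and 5.06 FPKM in SR (1.17, standard error 0.43), and the call was lost without HepG2 SR replicate 2 (0.98), HepG2 SR replicate 1 (1.35) or HepG2 WT replicate 1 (0.85). In Huh7 SR versus WT 2 were called, both lower, and the median was -0.17. TJP1, which encodes ZO-1, was at 14.8 and 9.32 FPKM in WT and 6.36 and 5.40 FPKM in SR (-0.89, standard error 0.36). CLDN12, a claudin, was at 37.3 and 34.2 FPKM in WT and 20.5 and 14.7 FPKM in SR, with no overlap. Both calls were lost without Huh7 WT replicate 1 (TJP1 -0.59 and CLDN12 -0.94). TJP1 was called without Huh7 WT replicate 2 and in no other fit with a library left out, and CLDN12 without either HepG2 SR library and in no other such fit.

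Between the cell lines the list median was -0.11, and CLDN3, a claudin, was called higher in Huh7 (0.63, standard error 0.25). It was between 0.947 and 1.65 FPKM in Huh7 and between 0.242 and 0.652 FPKM in HepG2. CLDN3 passed the filter through 3 Huh7 libraries alone, so the filter itself asked for high values in Huh7. The call was lost without any 1 of 6 libraries, for example HepG2 SR replicate 2 (0.57). The most abundant claudins were CLDN1 and CLDN6, with means of 143 and 78.0 FPKM. CLDN1 was highest in Huh7 WT replicate 1 (402 FPKM) and Huh7 SR replicate 1 (185 FPKM), and CLDN6, at 52.7 to 220.4 FPKM in the 5 similar libraries, was at 0.0959 and 0.0276 FPKM in those and at 7.87 FPKM in HepG2 SR replicate 2.

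EPCAM, the adhesion molecule of epithelial and progenitor cells, was at 95.3 and 77.1 FPKM in HepG2 WT, 147 and 11 FPKM in HepG2 SR, 7.03 and 132 FPKM in Huh7 WT, and 9.30 and 157 FPKM in Huh7 SR. The 3 low libraries were those with low KRT19, and each still had at least 7.03 FPKM. Log2 fold changes were -1.04 (standard error 1.84) in HepG2 SR versus WT, 0.30 (1.84) in Huh7 SR versus WT and -0.74 (1.30) in Huh7 versus HepG2. The direction changed with single libraries. In HepG2 it was 0.77 without HepG2 SR replicate 2, and in Huh7 it was -1.73 without Huh7 WT replicate 1 and -1.67 when Huh7 SR replicate 2 was left out. Taken by replicate number, SR minus WT was 0.62 and -2.70 in HepG2 and 0.36 and 0.25 in Huh7. Between the lines the value was 0.17 without HepG2 SR replicate 1, 0.28 without Huh7 WT replicate 1, 0.25 without Huh7 SR replicate 1 and 0.36 in the 5 similar libraries.

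Of 19 EPCAM partners and progenitor genes 17 were tested, and 0 were called in HepG2 SR versus WT (median 0.21, and -0.18 without HepG2 SR replicate 2) or between the lines (0.00). In Huh7 SR versus WT 1 was called, lower, with a list median of -0.03. It was ADAM17, a membrane protease that sheds surface proteins, at 30.5 and 45.5 FPKM in WT and 14.0 and 14.7 FPKM in SR (-1.32, standard error 0.44). The call was lost without Huh7 SR replicate 1 (-1.28), Huh7 SR replicate 2 (-1.35) or Huh7 WT replicate 2 (-1.03). The most abundant genes of the list ran in opposite directions over the libraries. SPP1, which encodes osteopontin, was at 6.36, 0.0236 and 0.299 FPKM in HepG2 SR replicate 2 and the Huh7 libraries of replicate 1, and from 121 to 823 FPKM in the 5 others. CD24 was at 325, 284 and 266 FPKM in the same 3 libraries and from 3.67 to 9.71 FPKM in the others.

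**Figure D3:**
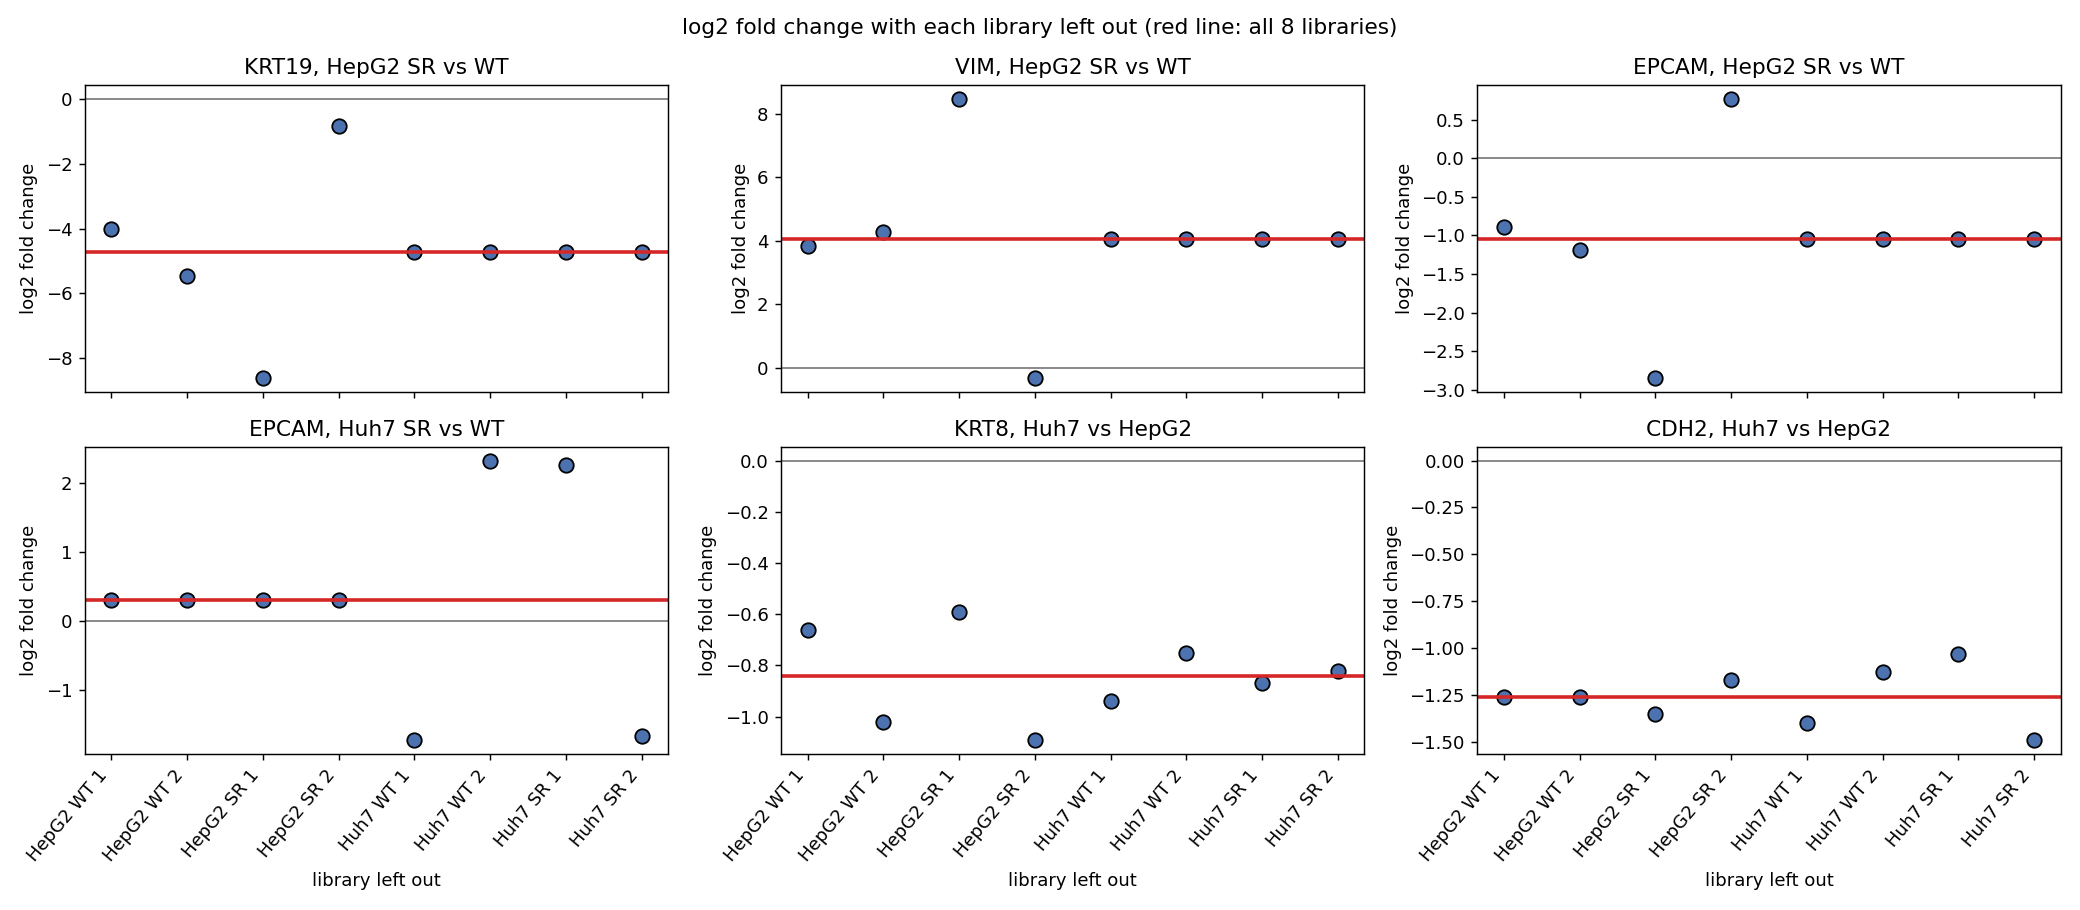
Log2 fold change with each library left out (points) and with all 8 libraries (red line), for KRT19, VIM and EPCAM in HepG2 SR versus WT, EPCAM in Huh7 SR versus WT, and KRT8 and CDH2 in Huh7 versus HepG2. VIM and EPCAM in HepG2 crossed 0 without HepG2 SR replicate 2, and CDH2 stayed between -1.49 and -1.03.

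ZEB1, a zinc finger repressor of epithelial genes, was low in all libraries. It was at 2.93 and 3.88 FPKM in HepG2 WT, 2.36 and 6.59 FPKM in HepG2 SR, 6.64 and 4.29 FPKM in Huh7 WT, and 3.76 and 2.74 FPKM in Huh7 SR. The highest values were in Huh7 WT replicate 1 and HepG2 SR replicate 2, and in Huh7 both SR libraries lay below both WT libraries. Log2 fold changes were 0.20 (standard error 0.49) in HepG2, -0.59 (0.49) in Huh7 and 0.14 (0.35) between the lines, and the HepG2 value was -0.39 without HepG2 SR replicate 2. The value between the lines was -0.16 without HepG2 SR replicate 1. ZEB1 (ENSG00000148516) lies on chromosome 10 from 31318495 to 31529814, and the antisense gene ZEB1-AS1, at 1.87 to 4.18 FPKM, overlaps it. Without strand, reads in the overlap cannot be assigned to either gene, and the extent of the overlap was not measured.

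RefSeq lists 7 ZEB1 starts, and the sequence before the first is shown. It holds 1 E-box, the motif to which ZEB1 and SNAI2 proteins are known to bind, the window before the start at 31319216 holds 2, and those before the 5 others hold 0. The sequence shown is on the plus strand of GRCh38.p14 at chr10:31318167-31318416, with capitals for 1 E-box and 1 GC box.

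ZEB1: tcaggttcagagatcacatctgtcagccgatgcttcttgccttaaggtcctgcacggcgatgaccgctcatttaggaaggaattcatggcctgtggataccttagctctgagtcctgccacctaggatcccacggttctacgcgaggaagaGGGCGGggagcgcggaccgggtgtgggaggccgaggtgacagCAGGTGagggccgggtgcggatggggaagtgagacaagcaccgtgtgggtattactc

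Sequences of this kind were found for 4 of the 10 genes, VIM, KRT8, CDH2 and ZEB1. SNAI2, which encodes the repressor SLUG, was listed at 0 in 4 libraries and reached 0.109 FPKM in HepG2 WT replicate 2 and 0.135 FPKM in Huh7 WT replicate 2. At those levels no fold change is given.

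Of 14 other transcription factors of the epithelial-mesenchymal transition 5 were tested and 7 were under 1 FPKM in every library. In all 3 comparisons 0 were called, with medians of -0.06 in HepG2, -0.34 in Huh7 and 0.40 between the lines. FOXQ1 and TCF3 had the highest means, 39.4 and 23.8 FPKM. FOXQ1 was at 5.85, 4.98 and 2.40 FPKM in HepG2 SR replicate 2 and the Huh7 libraries of replicate 1 and from 52.3 to 78.8 FPKM in the others. Of 15 epithelial regulators 9 were tested and 0 were called in the 3 comparisons, with medians of -0.43, -0.22 and 0.15. ELF3 and KLF5, which encode epithelial transcription factors, were highest in the Huh7 libraries of replicate 1, ELF3 at 52.0 and 45.0 FPKM and KLF5 at 64.7 and 45.1 FPKM.

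Mesenchymal genes were tested for 23 of 34 on the list. In HepG2 SR versus WT 3 were called, all lower, and the median was -0.83 against -0.03 over all genes. AXL, a receptor tyrosine kinase, was at 10.4 and 4.26 FPKM in WT and 2.16 and 0.194 FPKM in SR (-2.00, standard error 0.61). CCN1, a matricellular protein, was at 134 and 61.4 FPKM in WT and 29.4 and 10.2 FPKM in SR (-2.31, standard error 0.97). LOXL2, a collagen crosslinking enzyme, was at 3.06 and 1.45 FPKM in WT and 0.343 and 0.800 FPKM in SR (-1.02, standard error 0.41). LOXL2 passed the filter through the 2 HepG2 WT libraries alone, so the filter itself asked for high values there, and without either of them it has no value. Without HepG2 SR replicate 2, in which VIM was high, 0 were called and the median was -0.54, with AXL at -1.29. The AXL call was also lost without HepG2 WT replicate 1, that of CCN1 without either HepG2 WT library (-1.76 and -2.87) or either Huh7 SR library, and that of LOXL2 without HepG2 SR replicate 1 (-0.81) or any 1 of the 4 Huh7 libraries.

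Of the 23 mesenchymal genes 0 were called in Huh7 SR versus WT, with a median of 0.05. Between the lines 3 were called, all lower in Huh7, with a median of -0.62 against 0.03. SPARC, a matrix glycoprotein, was at 0.138 to 5.30 FPKM in Huh7 and 5.63 to 16.3 FPKM in HepG2 (-2.12, standard error 0.56), and was called with each library left out. FN1, which encodes fibronectin and is also made by hepatocytes, was at 246, 352, 190.0 and 934 FPKM in Huh7 and from 628 to 1139.9 FPKM in HepG2 (-1.36, standard error 0.51). CAVIN1, a caveola protein, was at 3.38 to 28.1 FPKM in Huh7 and 19.9 to 92.4 FPKM in HepG2 (-2.00, standard error 0.77). The FN1 call was lost without any 1 of 4 libraries, among them Huh7 WT replicate 1 (-1.23), and its value was -0.79 without Huh7 SR replicate 1. That of CAVIN1 was also lost without any 1 of 4, among them Huh7 SR replicate 1 (-1.31), and in the 5 similar libraries (-0.98). In those 5 SPARC was at -1.28 and FN1 at -0.80.

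Of the markers of bile duct cells, 8 of 10 were tested and 0 were called in the 3 comparisons, with medians of -0.15 in HepG2, 0.27 in Huh7 and -0.30 between the lines. Their summed level was 40.4 and 41.9 FPKM in the Huh7 libraries of replicate 1, 99.8 FPKM in HepG2 SR replicate 2 and from 324 to 946 FPKM in the others. KRT19 and EPCAM, which are on that list, were its most abundant genes. The hepatocyte list had a median of 0.18 and 0 called in HepG2 SR versus WT. It had 14 of 14 fold changes above 0 in Huh7 SR versus WT, with a median of 1.69 against -0.05 over all genes. The share of all genes above 0 is not given here. Of the 14, 2 were called (TF 2.13, standard error 0.70, and HNF4A 0.96, standard error 0.40). With a replicate block within each cell line 6 were called, in a fit that called 669 of all genes against 283 in the main fit. With Huh7 fitted alone 0 were called, where 120 of all genes were. The median and the calls changed with single Huh7 libraries. Without SR replicate 2 of Huh7 10 of 14 were above 0, with a median of 0.44 and 0 called, and without WT replicate 1 of Huh7 11 of 14 were, with a median of 1.01. Leaving out the other SR library of Huh7 gave 12 of 14 and a median of 3.04. Between the lines 7 of 14 were called, all lower in Huh7, with a median of -1.77 (from -2.30 to -1.23, and 3 to 8 called, with each library left out), and those of smallest p were SERPINA1 (-2.01), AFP (-3.79) and TTR (-3.82). The AFP call was lost without Huh7 SR replicate 1 (-3.12) and that of TTR without HepG2 SR replicate 2 (-2.91), where AFP was at -2.45. In the 5 similar libraries the 3 values were smaller, at -1.07, -1.61 and -1.53 in the same order. The TF call was lost without Huh7 SR replicate 2 (1.01) or Huh7 WT replicate 1 (1.85), with 3.25 without Huh7 SR replicate 1, and that of HNF4A without any 1 of 5 libraries, for example Huh7 SR replicate 1 (0.88). Of 8 immune markers 4 were tested and 0 were called in HepG2 SR versus WT (median 0.02). LYZ was called in Huh7 SR versus WT (2.51, standard error 1.05, list median 0.55), a call lost without any 1 of 7 libraries, for example Huh7 SR replicate 2 (0.65), and without Huh7 SR replicate 1 it was 4.37. LYZ (-1.92) and CD14 (-1.47) were called lower in Huh7 than in HepG2, with a list median of -1.02, and these calls were lost without any 1 of 6 and any 1 of 5 libraries. LYZ was at -0.99 without Huh7 SR replicate 1 and at -1.11 in the 5 similar libraries, and CD14 was at -0.78 there and not called.

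Over the 8 libraries the genes most like KRT19 by Pearson's r of log2(FPKM + 1) were EDA (0.991), GRAP (0.991), TNFSF13 (0.990), MXRA8 (0.990) and SPATA18 (0.990). All 5 were lowest in the 3 libraries with low KRT19, MXRA8 at 0.329, 1.22 and 1.80 FPKM there and at 68.1 to 98.9 FPKM in the others. For VIM, with 1 sex-linked gene left out, they were RFPL4B (0.997), RPL39L (0.996), LEPR (0.994), UCHL1 (0.992) and CLU (0.990). Each was highest in HepG2 SR replicate 2, so this likeness rests on that library. UCHL1 was at 251 FPKM there and at most 6.40 FPKM elsewhere. For CDH1 they were ZNF775 (0.936), DUS2 (0.907), GHDC (0.897), BCL3 (0.892) and EEF1G (0.890), a lower r than for KRT19 and VIM.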

How the data were processed

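RNA of 8 libraries was enriched with polyA beads and built into libraries with the NEBNext Ultra kit. The authors deposited 1 table of FPKM per library, in FPKM, fragments scaled to transcript length and library total. The submitters' notes name fastp 0.20.0 and GRCh38. The aligner, the quantification tool and the annotation are not given in the sources used here. Symbols were matched to 62666 of 63241 Ensembl identifiers (99.1%) with a separate reference list of gene names. Positions and overlaps of genes came from GENCODE 29.

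Genes with at least 1 FPKM in at least 2 libraries were fitted with limma 3.58.1 in R 4.3.3 (lmFit, then eBayes with trend) on log2(FPKM + 1), with 4 group means and 4 residual degrees of freedom. The median posterior SD was 0.48. Contrasts were SR minus WT in each cell line, the difference between these, and Huh7 minus HepG2 as means of WT and SR. Adjusted p is Benjamini-Hochberg over all genes tested. The study's edgeR test needs counts, which the files do not hold. Python 3.11.15 and pandas 2.3.3 made the summaries, and the fit was tested on simulated data.

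The members and the 11 pathway and 5 marker lists were chosen with earlier results of these data known. From each pathway list the called genes of smallest p, up to 3 per comparison, and the 2 of highest mean FPKM could be named. Genes of the marker lists were chosen for naming after their values were seen. Likeness is Pearson's r over 8 libraries among genes tested, and 1 sex-linked gene that met it for VIM was left out. Promoters are the 250 bases before RefSeq starts.

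Alternatives were a pseudocount of 0.1, other filters, TPM, quantile normalization, a replicate block, eBayes without trend, separate fits, other thresholds, the 5 similar libraries alone and each library left out. The replicate block within each cell line, and all alternatives for list medians and list genes, were added after values were seen. Dixon's ratio was taken over the 4 libraries of a labelled cell line, since groups of 2 are too small.

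Depth is not given. The steps between low FPKM values were searched in 2 forms, and the second was written after the first had been compared with earlier depth estimates of these data. The forms disagreed, at 40.5 and 21.2 M reads for HepG2 WT replicate 1, and the first ended at the edge of its grid for Huh7 WT replicate 1. Neither was used.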

Additional observations from a re-analysis of the deposited data

Results flagged for a closer look

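In each cell line, the gap between the most distant of the 4 libraries and its nearest neighbour was divided by the range of log2(FPKM + 1). Of 20 groups of 4, made of the 10 genes in HepG2 and in Huh7, 5 were past Dixon's 95% critical value. The nominal rate of 1 in 20 is for like replicates, and each group here mixes WT and SR libraries, so the count is not set against it. The share of all genes past it is not given here, so the count is a description. Of the 5, SNAI2 had 3 libraries listed at 0, which fixes its ratio. VIM and KRT19 were past it in the same library, which stands apart.

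VIM was past it in HepG2 SR replicate 2, with a ratio of 0.937 and 536 FPKM against at most 0.777 FPKM in the other HepG2 libraries. KRT19 was past it in the same library, with a ratio of 0.832 and 0.179 FPKM against at least 255 FPKM. CDH1 was lowest in HepG2 SR replicate 1, with a ratio of 0.862 and 8.19 FPKM against at least 13.0 FPKM. KRT7 was highest in Huh7 WT replicate 2, with a ratio of 0.837 and 4.75 FPKM against at most 0.551 FPKM. SNAI2 had a ratio of 1, since HepG2 WT replicate 2 was at 0.109 FPKM and the other HepG2 libraries were listed at 0.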

How the results depend on the processing

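Of 456 alternative values of the 9 genes tested, 414 kept their direction and their side of the threshold, 24 reversed, 11 came past it and 7 dropped below it. CDH2 in Huh7 versus HepG2 was called at the unadjusted threshold in every alternative fit, and in 0 of them at an adjusted p under 0.05. The 7 that dropped below it were KRT8 in Huh7 versus HepG2.

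With the 5 similar libraries alone, EPCAM reversed in HepG2 SR versus WT (0.77) and in Huh7 versus HepG2 (0.36), and ZEB1 in HepG2 SR versus WT (-0.39). With each library left out, values in HepG2 SR versus WT ran from -0.33 to 8.46 for VIM, -0.65 to 0.05 for CDH1, -2.85 to 0.77 for EPCAM and -0.39 to 0.79 for ZEB1. In Huh7 SR versus WT they ran from -0.06 to 1.29 for KRT18, -2.67 to 3.14 for KRT19, -1.55 to 0.60 for VIM, -0.44 to 0.17 for CDH1, -0.28 to 0.64 for CDH2 and -1.73 to 2.33 for EPCAM. In Huh7 versus HepG2 they ran from -3.15 to 1.25 for VIM, -0.27 to 0.08 for CDH1, -1.75 to 0.28 for EPCAM and -0.16 to 0.43 for ZEB1. Leaving out a library leaves 1 in its group, which is assumed to vary like the other groups. KRT7 did not pass the filter without HepG2 WT replicate 2 or Huh7 WT replicate 2, VIM did not pass it in the 5 libraries alone, and KRT7, VIM and the 1 endothelial marker did not pass it with HepG2 fitted alone, nor KRT7 with Huh7 fitted alone. LOXL2 did not pass it without either HepG2 WT library. They have no value there.

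The count of all genes called in HepG2 SR versus WT (325) was 504 with genes kept from 0.1 FPKM, 1392 with a replicate block within each cell line, and 58 to 1744 with a library left out (58 without SR replicate 2, 68 without WT replicate 1 and 1744 without SR replicate 1 of HepG2). In Huh7 SR versus WT (283) it was 1889 in the 5 libraries, where each Huh7 group has 1 library, 669 with that block, 120 with Huh7 fitted alone, and 153 to 816 with a library left out (816 and 571 without WT and SR replicate 1 of Huh7, 154 and 153 without WT replicates 1 and 2 of HepG2). For the difference (92) it was 992 in the 5 libraries, 254 from 0.1 FPKM, 168 with no filter, 535 with that block and 23 to 944 with a library left out. In Huh7 versus HepG2 (744) it was 1385 in the 5 libraries, 327 at a log2 fold change of at least 1 in size, and 232 to 1716 with a library left out (232 and 341 without WT replicates 1 and 2 of HepG2, and 308, 1716 and 1479 without SR replicate 1, SR replicate 2 and WT replicate 2 of Huh7). At an adjusted p under 0.05 it was 0 in these 4 comparisons. Apart from the fewer libraries or genes named, the cause was not tested.

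Replicate numbers tracked each other in Huh7, where deviations from the group means had an r of 0.796 across genes, more than in HepG2 (0.125), and nothing says that they pair cultures. With that block KRT19 in HepG2 SR versus WT came past the threshold, the 1 of the 9 genes that did. In the same comparison 9 of the 11 pathway lists had more calls with it, for example keratin linkers and desmosome (7 against 0), EPCAM partners and progenitor genes (5 against 0), tight junction (5 against 1) and mesenchymal genes (7 against 3), and in Huh7 4 of 11 did. With a library left out, 21 of 48 medians of pathway and marker lists changed sign.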
